A study of Rattus norvegicus with 2 samples.

Results

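Gata2, Klf1, Tal1 and Gfi1b, transcription factor genes of the erythroid and early progenitor programme, were followed across the cells of the rat zygomatic maxillary suture, the fibrous joint between cheek bone and upper jaw. They were chosen by name, and all 4 were found among the 22154 genes counted in at least 1 of the 2 libraries. The distraction library came from 4-week-old rats whose suture had been pulled apart for 7 days by a distractor bent from 0.4 mm nickel-titanium wire with a starting force of 20 g. The sham library came from 4-week-old rats that had only the holes drilled and no distractor, taken at the same 7 days. Both groups had the same surgical exposure and anaesthesia, neither carried a genetic change in the labels, and the labels name neither the strain nor how many animals went into a library. With 1 library in each group there are no replicates, and values are set side by side without p-values. Every interval is an exact 95% interval for the counting of molecules or cells, and it leaves out variation between animals and between preparations. Intervals for molecules take each molecule as independent, so they also leave out variation between cells. A ratio beyond its interval may still lie within the spread among cells.

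Red blood cells form from blood stem cells through committed precursors that divide, fill with haemoglobin and lose their nucleus. GATA2 is a zinc finger factor of stem and progenitor cells and of mast cells and basophils, and in the red cell line it is replaced on shared DNA sites by GATA1. TAL1 is a basic helix-loop-helix factor that binds E-box sequences with E proteins and is joined to GATA factors by LMO2 and LDB1. KLF1 binds CACCC sequences and switches on globin, membrane and haem genes. GFI1B is a repressor of erythroid and megakaryocyte cells that recruits the histone demethylase LSD1, the product of Kdm1a.

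The proximal promoters are shown first because these factors are known to bind one another's regulatory DNA. They are the 250 bases before each RefSeq transcription start in assembly GRCr8, printed 5′ to 3′ on the gene's strand. The deposited counts were made on the earlier build Rnor_6.0, so these positions serve only the sequences. Capitals mark matches, on either strand, to GATAA (the GATA core), CACCC (the KLF core), CAGNTG (an E-box) or AAATCA (the GFI core).
Gata2, chr4:122216031-122216280, plus strand: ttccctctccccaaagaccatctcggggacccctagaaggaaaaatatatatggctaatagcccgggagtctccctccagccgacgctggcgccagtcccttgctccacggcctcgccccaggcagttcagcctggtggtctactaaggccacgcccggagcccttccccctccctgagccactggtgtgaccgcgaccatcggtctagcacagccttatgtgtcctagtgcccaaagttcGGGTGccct
Tal1, chr5:133824214-133824463, plus strand: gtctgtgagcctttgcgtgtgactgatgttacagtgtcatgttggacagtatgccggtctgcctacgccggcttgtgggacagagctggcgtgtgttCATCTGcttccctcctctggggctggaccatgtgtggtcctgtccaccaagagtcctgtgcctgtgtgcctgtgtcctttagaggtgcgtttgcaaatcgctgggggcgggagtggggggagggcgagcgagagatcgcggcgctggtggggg
Klf1, chr19:40158652-40158901, minus strand: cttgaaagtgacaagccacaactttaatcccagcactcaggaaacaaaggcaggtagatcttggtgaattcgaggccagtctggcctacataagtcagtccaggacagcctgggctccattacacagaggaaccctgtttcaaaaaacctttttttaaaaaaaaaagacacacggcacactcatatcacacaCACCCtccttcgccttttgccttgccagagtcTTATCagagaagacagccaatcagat
Gfi1b, chr3:32350902-32351151, minus strand: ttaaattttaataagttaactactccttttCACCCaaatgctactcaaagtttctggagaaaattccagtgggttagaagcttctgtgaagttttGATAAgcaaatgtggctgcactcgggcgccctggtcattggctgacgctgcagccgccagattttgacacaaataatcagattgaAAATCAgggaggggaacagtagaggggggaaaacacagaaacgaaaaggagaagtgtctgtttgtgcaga
The Klf1 window held 1 GATA match, read on the other strand, whose first printed letter lies 26 bases before the start, and 1 CACCC match at 58 bases. The Gfi1b window held a GATA match at 155 bases, a CACCC match at 220 bases and a match to the GFI core at 70 bases, and no matches overlapped. In Tal1 the single match was an E-box, on the other strand, at 153 bases, and in Gata2 it was a CACCC match on the other strand at 9 bases. Such short matches are common: of 33469 rat promoter windows of this length, 23.5% held GATAA, 49.2% CACCC, 43.3% CAGNTG and 12.7% AAATCA on either strand. A match is a description of the letters, and none of these windows was assayed for binding here.

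The tables held 4889 distraction and 5351 sham cells, of which 4037 and 5183 passed a minimum of 500 molecules and 200 genes and a limit of 25% mitochondrial molecules. Median depth was 4161 molecules per kept distraction cell and 3033 per kept sham cell, and 22 cell barcodes occurred in both libraries. Cells were grouped by marker gates that use none of the 4 factors. An erythroid-like cell held at least 8 of 29 red cell markers and was put in the early, middle or late stage by the stage whose markers it held the largest share of. Early cells numbered 93 in distraction and 53 in sham, middle cells 175 and 136, and late cells 148 and 108. The markers used for gating were high in their own gates, which the gating fixes in advance, so their levels are no test of the stage names. In the early gate Car1, a carbonic anhydrase of young precursors, stood at 2825 and 3245 CPM (molecules of a gene scaled to a common gate total) against 20.4 and 33.5 in the rest of each library. Slc4a1, the anion exchanger band 3, stood at 13805 and 13457 CPM in the middle gate, and Alox15, a lipoxygenase of maturing red cells, at 6720 and 4668 CPM in the late gate. The stages are ranges and not types, since 306 of the 713 erythroid-like cells had their 2 highest stage shares within 0.1 of each other. Haemoglobin took 3.15% and 2.35% of all molecules in the early gate, 35.4% and 26.7% in the middle gate and 52.3% and 49.5% in the late gate (distraction first in each pair). A growing haemoglobin share lowers the CPM of every other gene, so stage comparisons are also given with haemoglobin left out of the total.

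Most molecules of Klf1, Tal1 and Gfi1b lay in erythroid-like cells, and most of those of Gata2 did not. Erythroid-like cells were 10.3% of kept distraction cells (416 cells) and 5.73% of kept sham cells (297 cells). They held 92.0% of the 1440 Klf1 molecules of the distraction library and 88.8% of the 1078 of the sham library. For Gfi1b the shares were 90.8% of 1464 and 85.6% of 1074 molecules, and for Tal1 81.3% of 1751 and 78.1% of 1103. Of Gata2, erythroid-like cells held 44.8% of 674 molecules in distraction and 21.2% of 400 in sham, nearly all in the early stage. The gate of mast cells and basophils, with 20 and 19 cells, held a further 26.6% and 42.5% of Gata2. A gate of cells with Cd34, Kit and other stem cell markers held 14.5% and 10.0% of Gata2, and the rest lay in smaller parts elsewhere. Gata2 was thus spread mainly over the early red cell stage, the granule-bearing mast and basophil cells and the Cd34 and Kit gate. The other 3 genes were concentrated in the red cell line.

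**Figure D1:**
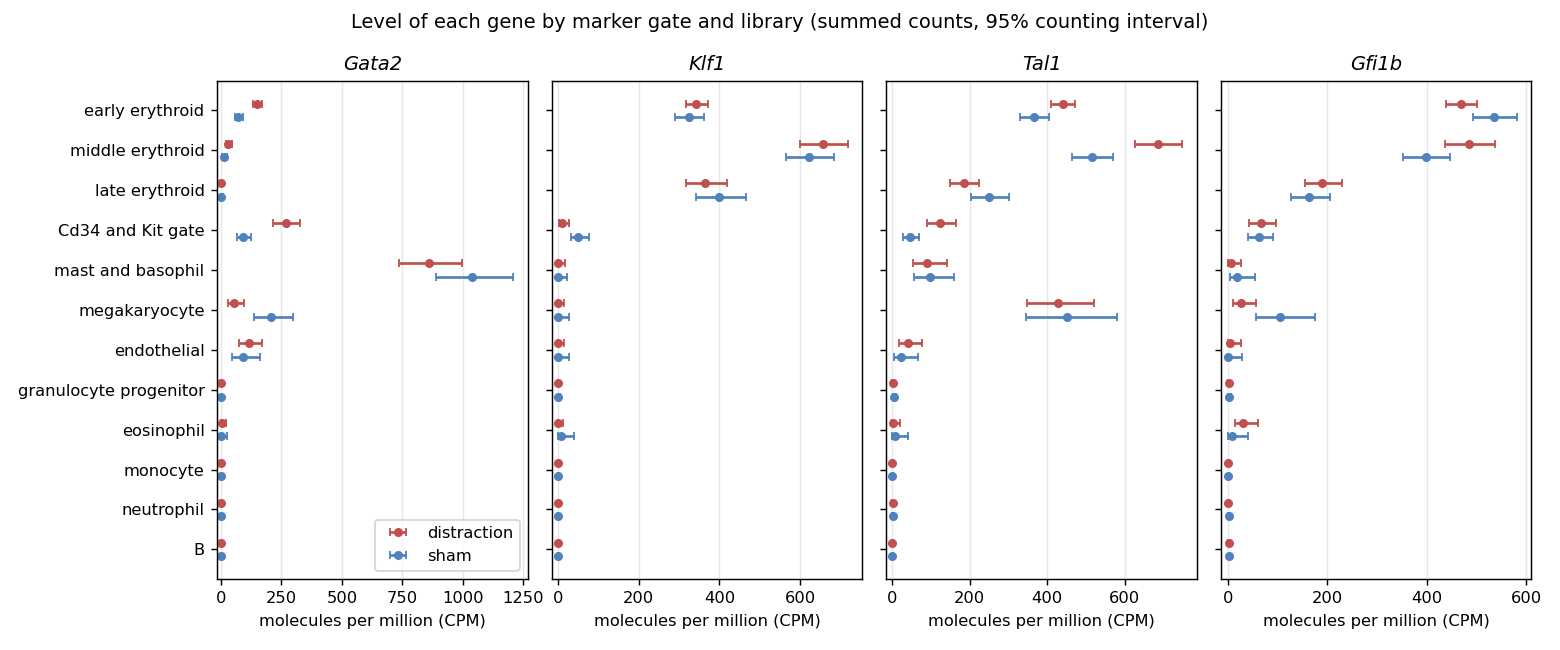
Level of each gene (x axis, CPM of summed molecules, linear) in 12 marker gates (y axis) for the distraction (red) and sham (blue) library, with exact 95% counting intervals. Klf1 is near 0 outside the erythroid gates and the Cd34 and Kit gate, Tal1 is as high in megakaryocyte-like as in early erythroid-like cells within the intervals, and Gata2 is highest in the mast and basophil gate at 859 and 1040 CPM.

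Gata2 was highest among red cell precursors at the early stage and was not detected at the late stage. Its level was 151 CPM in early distraction cells (279 molecules, interval 134 to 170) and 71.9 CPM in early sham cells (76 molecules, 56.7 to 90.0). In the middle stage it was 31.1 CPM (23 molecules) and 12.6 CPM (9 molecules). No Gata2 molecule was found in 148 late distraction and 108 late sham cells, which allows up to 6.55 and 8.68 CPM by the exact interval. A floor of 3 counts per gate and library lies at 5.32 and 7.06 CPM. Both libraries thus had their highest level in early cells. The step from middle to late rests on 23 and 9 molecules against 0, too few to be tested, and in sham the middle interval of 5.77 to 23.9 CPM includes the late floor. Middle over early was 0.205 (interval 0.128 to 0.315) in distraction and 0.175 (0.0772 to 0.351) in sham, both called lower. A ratio is called here when it is at least 1.5 either way and its interval lies on 1 side of 1, among genes with 30 or more counts over both sums. By that rule 64.9% of 6170 genes were lower in the middle than in the early stage in distraction and 55.7% of 5507 in sham, so a lower level as such was the common case. From the early to the late stage, Gata2 was at least 23.0-fold lower in distraction and at least 8.09-fold lower in sham by the exact interval. Of 6019 and 5091 genes, 80.9% and 77.2% were called lower. With haemoglobin left out of the total, Gata2 was still called lower in both libraries, where 56.9% and 52.1% of genes were.

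Gata2 was detected in a minority of early cells at the depth read. It was found in 39 of 93 early distraction cells (41.9%, interval 31.8 to 52.6) and 21 of 53 early sham cells (39.6%, 26.5 to 54.0), at median depths of 12648 and 9670 molecules. Holding cells carried 1 to 47 molecules in distraction (median 3) and 1 to 9 in sham (median 2). Detection was more frequent in the first of the 6 maturation bins given below, with median depths of 28602 and 30028 molecules. There 35 of 67 distraction cells (52.2%) and 22 of 40 sham cells (55.0%) held Gata2. B-like cells, which serve as a background for stray molecules, held Gata2 in 0.293% of 682 and 0.197% of 1522 cells, at median depths of 3200 and 2820 molecules. After each cell was thinned to 2000 molecules, 13 of 89 early distraction cells (14.6%, 8.01 to 23.7) and 3 of 51 early sham cells (5.88%, 1.23 to 16.2) still held Gata2. In the middle stage 9 of 175 and 4 of 136 cells held it, and 60.9% of the middle distraction molecules were in 1 cell.

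Tal1, the helix-loop-helix partner, had its highest summed level at the middle stage and its lowest at the late stage. It measured 440 CPM in early distraction cells (811 molecules) and 366 CPM in early sham cells (387 molecules). At the middle stage it was 687 CPM (508 molecules) and 516 CPM (368 molecules). At the late stage it was 185 CPM (104 molecules) and 249 CPM (106 molecules), so that the 2 libraries shared the order of stages but not its steepness. Middle over early was 1.56 (1.39 to 1.75) in distraction, a call, and 1.41 (1.22 to 1.63) in sham, under the fold asked for. In these comparisons 10.0% and 9.95% of genes were called higher. With haemoglobin left out, the ratios were 2.34 and 1.88 and both were called, where 16.4% and 15.3% of genes were. The step was smaller by other measures: the distraction ratio was 1.42 with mixed cells kept and 1.25 thinned, neither called, and the sham ratio was 0.976 with the mean of per-cell CPM and 0.898 thinned, the other direction. With Leiden clusters the sham ratio was 1.77 and called. Late over early Tal1 was 0.420 (0.339 to 0.515) in distraction, called lower, and 0.681 (0.544 to 0.846) in sham, not called. In sham it was called lower under 6 of 10 alternatives, at 0.426 to 0.659. Among the 10, the mean of per-cell CPM carries the call of the summed counts and has none of its own. Without haemoglobin these became 0.852 (0.688 to 1.05) and 1.32 (1.05 to 1.64), and neither was called. From the middle to the late stage Tal1 was called lower in both libraries, at 0.269 and 0.484, where 57.1% of 2823 and 59.7% of 3228 genes were. Without haemoglobin the ratio was 0.364 in distraction, still called (36.7% of genes were), and 0.702 in sham, not called (34.1%).

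Klf1, the activator of globin and membrane genes, also peaked in the middle stage and was still present in late cells. Early levels were 343 CPM (633 molecules) in distraction and 325 CPM (343 molecules) in sham. Middle levels were 657 CPM (486 molecules) and 622 CPM (444 molecules), and late levels 366 CPM (206 molecules) and 400 CPM (170 molecules). At every stage the Klf1 level of each library lay inside the other's interval. Klf1 was called higher in the middle than in the early stage in both, at 1.91 (1.70 to 2.16) and 1.92 (1.66 to 2.21). Of all genes, 10.0% and 9.95% were called higher there. Thinned to equal depth the distraction ratio was 1.28 and not called. From the middle to the late stage Klf1 was called lower, at 0.557 and 0.643, where 57.1% and 59.7% of genes were. Without haemoglobin it was at 0.754 and 0.933, neither called. Late over early it was 1.06 (0.905 to 1.25) and 1.23 (1.02 to 1.49), neither called, where 7.29% and 7.62% of genes were called higher. With haemoglobin left out, late over early was 2.16 (1.84 to 2.54) and 2.38 (1.97 to 2.87), both called, where 12.6% and 13.7% of genes were. Whether Klf1 was higher in late than in early cells therefore depends on the total it is scaled to. With the mean of per-cell CPM, for which no call was made, the log2 ratios were -0.51 and -0.13.

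Gfi1b, the repressor, was high through the early and middle stages and lower in late cells. It measured 469 CPM (864 molecules) and 535 CPM (566 molecules) early, 485 CPM (359 molecules) and 398 CPM (284 molecules) in the middle stage, and 190 CPM (107 molecules) and 162 CPM (69 molecules) late. Ranked with all other genes, gate markers included, by the fold of the early gate over the remaining kept cells, Gfi1b came at rank 9 with 20.6. Middle over early was 1.04 (0.913 to 1.17) in distraction and 0.743 (0.642 to 0.858) in sham, neither called. Without haemoglobin Gfi1b was at 1.55 in distraction, called higher as were 16.4% of genes, and 0.990 in sham. With Leiden clusters it was at 1.77 in distraction, also called. Late over early it was called lower in both, at 0.405 (0.328 to 0.496) and 0.303 (0.233 to 0.390), where 80.9% and 77.2% of genes were. Leaving haemoglobin out brought the Gfi1b ratios to 0.823, no longer called, and 0.586, still called, where 56.9% and 52.1% of genes were. From the middle to the late stage Gfi1b was called lower with haemoglobin in the total (0.391 and 0.408) and without it (0.530 and 0.592). So were 57.1% and 59.7% of genes with haemoglobin in the total, and 36.7% and 34.1% without it.

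**Figure D2:**
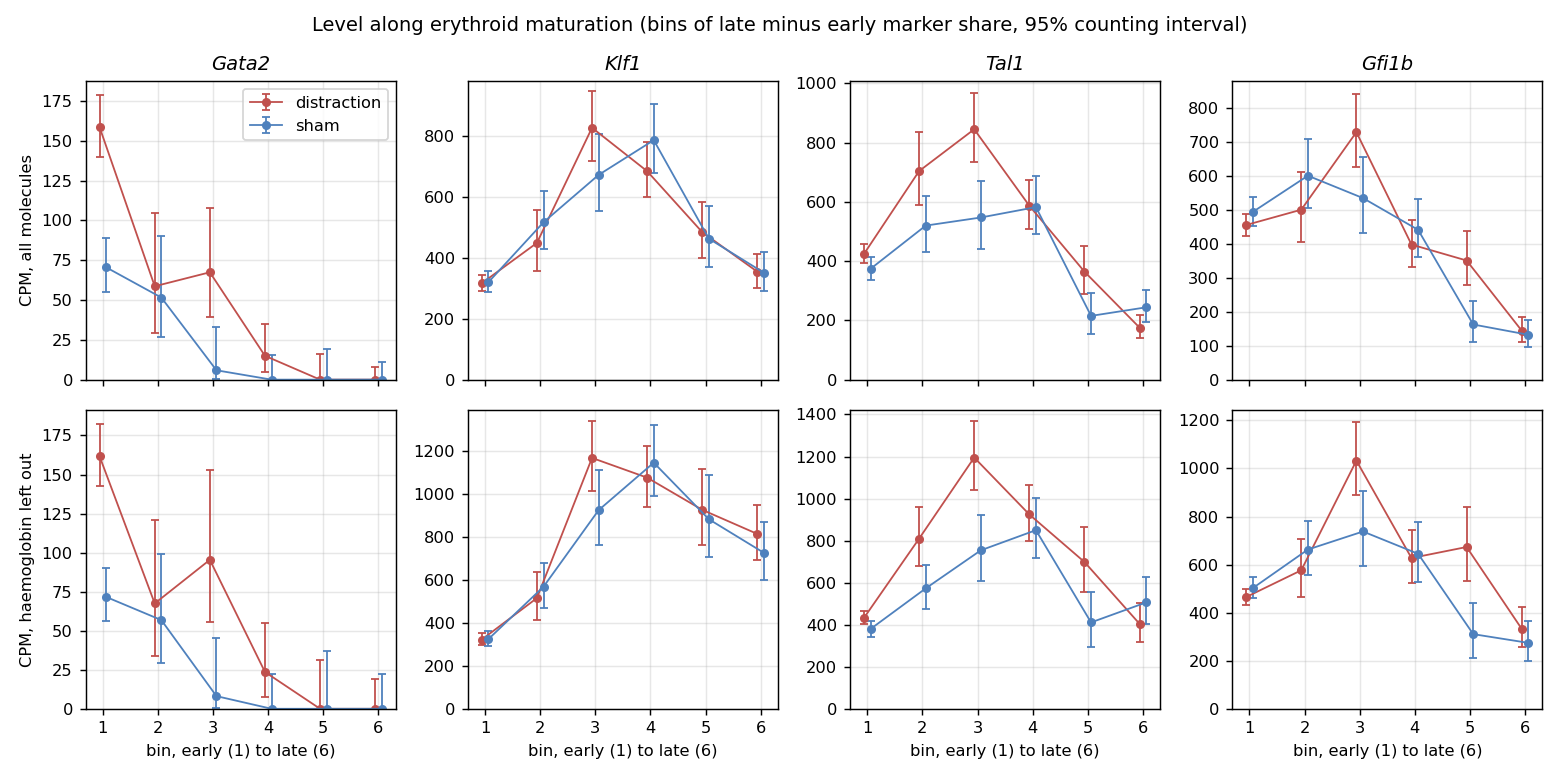
Level of each gene along 6 bins of the late minus early marker share (x axis, early to late), as CPM of all molecules (upper row) and with haemoglobin left out (lower row), with exact 95% counting intervals and 22 to 123 cells per bin and library. Gata2 falls to 0 by bin 5 in both libraries, whereas Klf1, Tal1 and Gfi1b have their highest point in bins 2 to 4 on both scales.

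The same order was seen when the 713 erythroid-like cells were placed on a finer scale, the share of late markers held minus the share of early markers, in 6 bins whose edges were set after the data had been seen. Gata2 was at 159 and 70.5 CPM in the first bin and at 0 in the fifth and sixth bins of both libraries. The fourth bin had 5 Gata2 molecules in 81 distraction cells and 0 in 52 sham cells. Klf1 stood at 316 and 319 CPM in the first bin, and its highest levels were 825 CPM in the third bin in distraction and 785 CPM in the fourth bin in sham. In the last bin Klf1 was back at 354 and 350 CPM. Tal1 was highest in the third bin in distraction, at 845 CPM, and in the fourth in sham, at 582 CPM, where its 4 earliest bins in sham spanned 374 to 582 CPM. Gfi1b was highest in the third bin in distraction at 730 CPM and in the second in sham at 602 CPM, and it ended at 145 and 132 CPM. Cells of the first bin were far deeper than the rest, with medians of 28602 and 30028 molecules against 3314 to 5647 in the other bins.

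Shares of cells were compared after thinning, since stages differ in depth. Of thinned early, middle and late distraction cells, 44.9%, 66.7% and 44.5% held Klf1, and of sham cells 49.0%, 67.2% and 45.5%. Before thinning the Klf1 shares were 91.4%, 83.4% and 54.7% in distraction and 94.3%, 80.9% and 58.3% in sham. In B-like cells, at median depths of 3200 and 2820 molecules, unthinned shares were 0.293% and 0.657% for Klf1, 0.440% and 0.263% for Tal1 and 0.733% and 0.986% for Gfi1b. Tal1 was held by 56.2%, 57.0% and 24.2% of thinned distraction cells and 54.9%, 51.2% and 25.3% of thinned sham cells (before thinning 90.3%, 73.7% and 29.7%, and 92.5%, 69.9% and 29.6%). Gfi1b was held by 53.9%, 48.5% and 19.5%, and by 58.8%, 43.2% and 17.2% (before thinning 88.2%, 59.4% and 29.1%, and 83.0%, 55.1% and 21.3%). At equal total depth the early and middle intervals for Klf1 did not overlap in distraction (34.4 to 55.9 and 58.9 to 73.8) and overlapped in sham (34.8 to 63.4 and 58.2 to 75.3). For Tal1 and Gfi1b the early and middle intervals overlapped in both libraries, and the late intervals lay below both. The part of haemoglobin in the lower late shares was not tested.

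**Figure D3:**
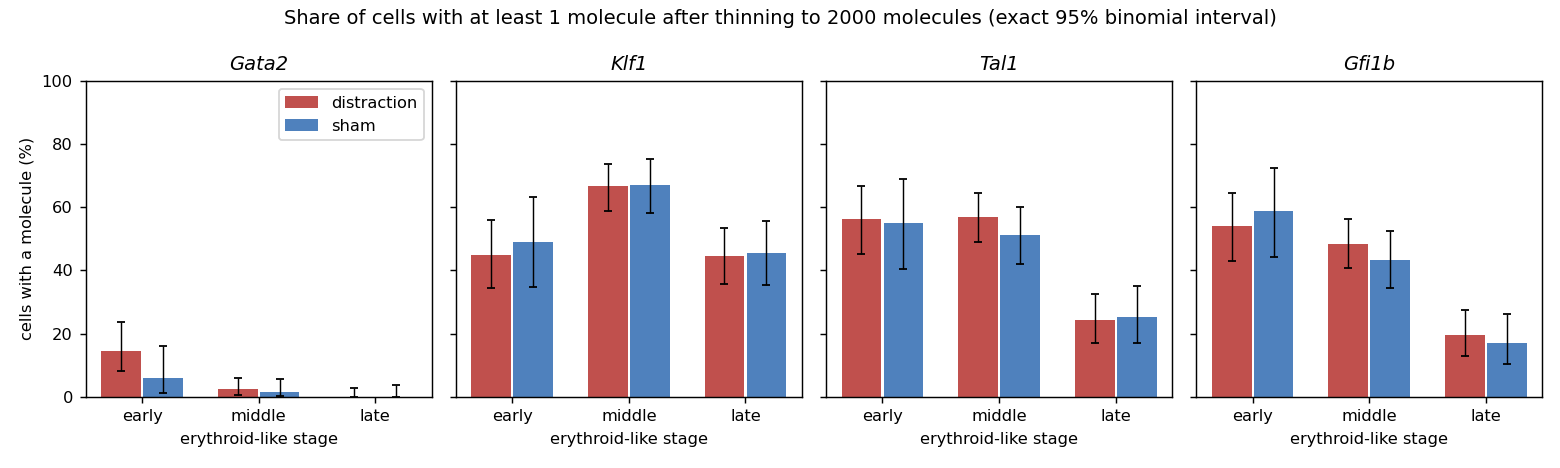
Share of cells with at least 1 molecule of each gene (y axis, percent, from 0) by erythroid-like stage after every cell was thinned to 2000 molecules, with exact 95% binomial intervals. Klf1 is highest in middle cells at 66.7% and 67.2%, Tal1 and Gfi1b drop in late cells, and Gata2 goes from 14.6% and 5.88% to 0. The 2000 molecules include haemoglobin, so late cells keep fewer molecules of other genes.

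Pairs of factors in the same thinned cells were described by counts. Of 89 early distraction cells, 6 held none of the 4 genes, 31 held 1, 36 held 2, 16 held 3 and 0 held all 4. Of 51 early sham cells these numbers were 4, 20, 16, 10 and 1. Among early distraction cells Gfi1b was held by 27 of 40 cells with Klf1 (67.5%, 50.9 to 81.4) and by 21 of 49 without it (42.9%, 28.8 to 57.8). In early sham cells the numbers were 15 of 25 with Klf1 and 15 of 26 without. Before thinning they were 77 of 85 and 5 of 8 in distraction and 43 of 50 and 1 of 3 in sham. Of the 13 early distraction cells with Gata2, 3 also held Klf1 (23.1%, 5.04 to 53.8), against 37 of 76 without Gata2 (48.7%, 37.0 to 60.4). In sham 2 of 3 cells with Gata2 held Klf1. Before thinning, 36 of 39 early distraction cells with Gata2 held Klf1 and 49 of 54 without it, so the gap in thinned cells is not seen at full depth. In late cells 53 of 128 distraction and 48 of 99 sham cells held none of the 4, and 7 and 10 held 3. Late cells with Klf1 held Tal1 in 19 of 57 cases in distraction (33.3%, 21.4 to 47.1) and late cells without it in 12 of 71 (16.9%, 9.05 to 27.7). In late sham cells these were 19 of 45 (42.2%, 27.7 to 57.9) and 6 of 54 (11.1%, 4.19 to 22.6), and before thinning 35 of 81 against 9 of 67 in distraction and 29 of 63 against 3 of 45 in sham. Depth still differs among cells before thinning, and its part there was not tested.

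Outside the red cell line the 4 genes had different distributions. Gata2 was highest in the mast and basophil gate, whose gating markers include the granule proteases Mcpt8 and Cma1, histidine decarboxylase Hdc and carboxypeptidase Cpa3. There it reached 859 CPM in distraction (179 molecules, 738 to 995) and 1040 CPM in sham (170 molecules, 889 to 1208), in 17 of 20 and 15 of 19 cells. Against early erythroid-like cells the level was 5.68 times and 14.5 times as high, where 14.8% of 6181 and 14.1% of 5182 genes were called higher. Klf1 had no molecule in this gate in either library, by the exact interval at least 19.3-fold and 14.3-fold lower than in early erythroid-like cells. Gfi1b had 1 and 3 molecules there, and Tal1 19 and 16, at 91.2 and 97.8 CPM. These 3 were called lower in both libraries, where 36.1% and 40.3% of genes were. Mitf, a master regulator of mast cells, had 0 molecules in this gate, and was named after its value was seen. The 6 eosinophil markers, of which 4 and 3 were seen, summed to 29733 and 36661 CPM there, so the cells are called by their gate and not as mast cells.

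Megakaryocyte-like cells, the platelet precursors, shared Tal1 with the red cell line but not Klf1. In 15 distraction and 10 sham cells Tal1 measured 428 CPM (101 molecules) and 452 CPM (61 molecules), 0.973 (0.783 to 1.20) and 1.24 (0.927 to 1.62) of its level in early erythroid-like cells. Klf1 had 0 molecules in both, by the exact interval at least 21.9-fold and 11.8-fold lower. Gfi1b, known in this lineage too, was at 25.4 CPM (6 molecules) and 104 CPM (14 molecules), ratios of 0.0542 and 0.194 that were called lower. In this comparison 29.0% of 6165 genes in distraction and 21.4% of 5100 in sham were called lower. Gata2 stood at 55.1 CPM in distraction, called lower at 0.364, and at 208 CPM in sham, called higher at 2.89, where 12.1% of genes were. In both libraries 1 cell held most of that Gata2, 10 of 13 molecules and 21 of 28, so these Gata2 values rest on 1 cell each. Without that cell the Gata2 levels were 15.7 and 64.9 CPM.

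Granulocyte progenitor-like cells, defined by primary granule genes such as Mpo and Elane, were nearly empty of all 4 factors. Among 123 distraction cells there were 0 molecules of Gata2, 1 of Klf1, 8 of Tal1 and 3 of Gfi1b, and among 78 sham cells 2, 2, 6 and 2. These are among the deepest cells, with medians of 31586 and 10925 molecules. All 4 were called lower than in early erythroid-like cells in both libraries, where 42.7% of 7943 and 38.2% of 6552 genes were. Of the other blood factors, 9 of 17 tested in distraction and 10 of 16 in sham were called higher in these cells, where 20.5% and 19.4% of all genes were, and 6 and 3 were called lower. Spi1, the myeloid factor PU.1, stood at 256 and 253 CPM there against 5.97 and 5.68 CPM in early erythroid-like cells. Gfi1, the paralogue of Gfi1b used in granulocytes, stood at 43.7 and 50.7 CPM there, against 3 molecules and 1 molecule in early erythroid-like cells.

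Endothelial-like cells and a gate of cells with Cd34, Kit and other stem cell markers also held Gata2 and Tal1. Gata2 measured 117 CPM (26 molecules, 11 of 22 cells) and 91.7 CPM (12 molecules, 8 of 16 cells) in endothelial-like cells. Tal1 measured 40.5 CPM (9 molecules) and 22.9 CPM (3 molecules) there, where Tal1 in distraction was at 172 CPM with mixed cells kept, and Klf1 0 in both. In the Cd34 and Kit gate, with 20 and 21 cells, Gata2 was at 267 CPM (217 to 326) in distraction and 91.7 CPM (65.5 to 125) in sham. The highest cell held 42 of 98 and 14 of 40 of those molecules, without it the distraction level was 158 CPM, and after thinning 4 of 20 and 5 of 21 cells held Gata2. By fold over the remaining cells, Gata2 was at rank 3 in this gate with 8.57, and the mast cell genes Mcpt1 and Slc18a2 were also among its 10 leading genes, so the cells are called by their gate alone. Klf1 in that gate came from 3 of 20 and 2 of 21 cells, with 4 and 22 molecules, 14 of the 22 in 1 cell. Gfi1b there was at 65.5 CPM (24 molecules in 5 cells) and 61.9 CPM (27 molecules in 2 cells), and Tal1 at 123 and 45.8 CPM. Without the highest cell, Gfi1b was at 38.0 and 19.8 CPM and sham Klf1 at 19.8 in place of 50.4 CPM. Eosinophil-like cells held 8 Gfi1b molecules in 7 of 36 distraction cells and 1 molecule in 34 sham cells. In neutrophil-, monocyte- and B-like cells no member exceeded 2.30 CPM, the Tal1 level of sham neutrophil-like cells.

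In the order of Gata2 levels in distraction, mast and basophil cells stood above the Cd34 and Kit gate and that above early erythroid-like cells, each step beyond its interval. The second step rests on 1 cell, since without it the Cd34 and Kit gate was at 158 CPM, inside the interval of the early cells (134 to 170). Early erythroid-like and endothelial-like cells were neighbours whose Gata2 ratio of 0.774 (0.497 to 1.16) did not part them. In sham the mast and basophil gate was also first for Gata2, and endothelial-like, Cd34 and Kit gate and early erythroid-like cells were neighbours that could not be parted (ratios of 0.999 and 0.784). For Klf1 in distraction the step from middle to late was beyond its interval at 0.557, and late and early cells could not be parted (0.939, 0.801 to 1.10). In sham, early cells were at 0.811 (0.673 to 0.981) of the late level. For Tal1 in distraction the middle stage was followed by early erythroid-like and megakaryocyte-like cells, which could not be parted (0.973, 0.783 to 1.20). In sham megakaryocyte-like cells came second for Tal1 and could be parted neither from the middle stage (0.878, 0.658 to 1.15) nor from early cells (0.809, 0.616 to 1.08). For Gfi1b in distraction the middle and early stages could not be parted (0.966, 0.853 to 1.10), and late cells came next at 0.405 of the early level. In sham the early stage was first for Gfi1b and the middle stage at 0.743 of it.

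Distraction and sham were compared within each stage. Gata2 was higher in distraction at the early stage, and the summed levels of Klf1, Tal1 and Gfi1b differed by less than 1.5 times at all 3 stages. In early cells Gata2 stood at 2.10 times the sham level (1.63 to 2.75), a call, where 1.9% of 6695 genes were called higher and 4.42% lower. In the same cells Klf1 was at 1.06 (0.926 to 1.21), Tal1 at 1.20 (1.06 to 1.36) and Gfi1b at 0.875 (0.786 to 0.975), none called. The Tal1 and Gfi1b intervals both leave out 1, in opposite directions. In middle cells Gata2 was at 2.47 (1.10 to 6.05) on 23 against 9 molecules, where 1.94% of 3767 genes were called higher and 21.3% lower. Klf1 was at 1.06 (0.926 to 1.20), Tal1 at 1.33 (1.16 to 1.53) and Gfi1b at 1.22 (1.04 to 1.43) in middle cells. With haemoglobin left out the Tal1 ratio reached 1.51 and was called, as were 3.85% of genes, and with cells near a stage border left out it was 1.56 and called. In late cells Klf1 was at 0.914 (0.742 to 1.13), Tal1 at 0.740 (0.559 to 0.979) and Gfi1b at 1.17 (0.856 to 1.61), none called, where 2.63% of 1860 genes were called higher and 13.4% lower. With Leiden clusters in place of gates the late Gfi1b ratio was 2.24 and called higher.

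The size of the Gata2 difference in early cells depended on how the cells were chosen. The share of early cells with Gata2 was 41.9% and 39.6% at full depth and 14.6% and 5.88% thinned, with overlapping intervals (8.01 to 23.7 and 1.23 to 16.2). At full depth holding cells had a mean of 7.15 molecules in distraction and 3.62 in sham. In the first maturation bin, where median depth was 28602 and 30028 molecules, Gata2 was at 159 CPM (140 to 179) in 35 of 67 distraction cells and 70.5 CPM (55.2 to 88.8) in 22 of 40 sham cells. Without the highest cell of each library the ratio was 1.96, and with the mean of per-cell CPM 1.56. With 1 more erythroid marker asked of each cell it was 1.501, and with Leiden clusters in place of gates 1.31 and not called. Thinned to equal depth it was 2.06 with too few molecules for a call. Over all kept cells with no gate at all, Gata2 was at 1.59 times the sham level. In middle cells the call was lost without the highest cell, at 1.67, with mixed cells kept, at 2.15, and after thinning, at 3.03, and the ratio was 6.53 with the per-cell mean, 9.22 with Leiden clusters and 12.6 with cells near a stage border left out. Markers of other cells that hold Gata2 were summed in both early gates. The 10 mast and basophil markers summed to 8.68 CPM in distraction and 7.57 CPM in sham with 3 of 10 seen in each, the 9 markers of the Cd34 and Kit gate to 284 and 290 CPM, the 11 megakaryocyte markers to 93.3 and 81.4 CPM, and the 7 endothelial markers to 47.2 and 53.9 CPM. The libraries also differ in depth and in the make-up of their cells, whose part in the result was not tested.

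**Figure D4:**
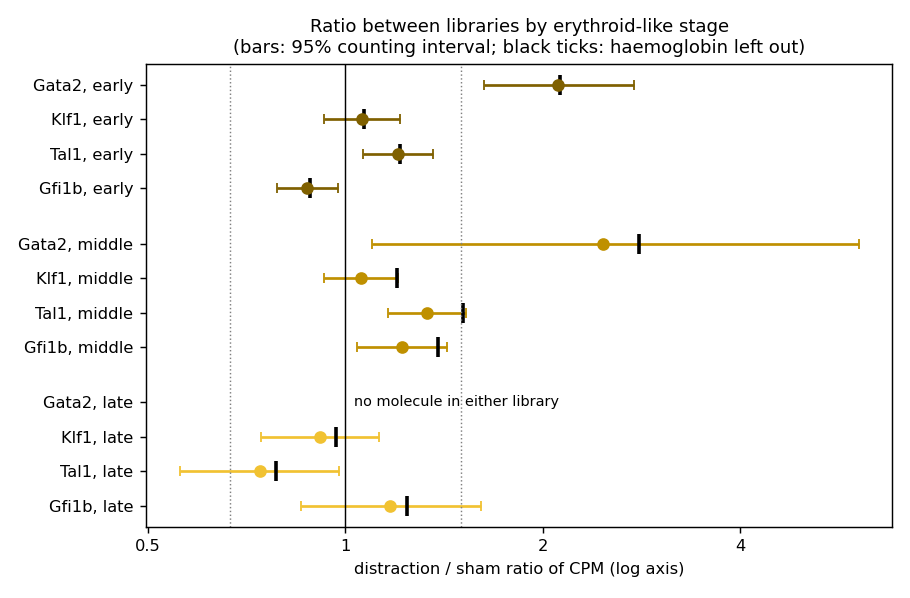
Ratio of distraction to sham CPM (x axis, log scale) for each gene at each erythroid-like stage, with exact 95% counting intervals, black ticks for the ratio with haemoglobin left out and dotted lines at 1.5 times either way. Gata2 lies at 2.10 in early and 2.47 in middle cells, and the points of the other 3 genes lie between 0.740 and 1.33.

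The genes whose levels ran most like each factor were sought over 14 sums, 7 gates with at least 50 cells in each of 2 libraries, as Pearson's r of log2(CPM + 1) among 9266 genes. The 7 gates were the 3 erythroid stages and the granulocyte progenitor, neutrophil, monocyte and B gates. The mast and basophil gate, where Gata2 was highest, had too few cells to enter. So had the Cd34 and Kit, megakaryocyte and endothelial gates, and likeness to any of the 4 factors leaves all of these out. The sums share libraries and depth, so r is a description. Klf1 ran most like Tspo2 (0.997), a membrane protein gene of red cell precursors, Ahsp (0.996), the chaperone of alpha globin, and Fn3k (0.992). Tspo2, for instance, measured 48.3, 93.3 and 76.3 CPM over the 3 stages in distraction and 44.5, 74.3 and 61.2 CPM in sham. Gfi1b ran most like the amino acid transporter gene Slc38a5 (0.994), Slc25a21 (0.994) and Slc22a23 (0.993), and Tal1 like Pkhd1l1 (0.987), Gsta4 (0.985) and Slc25a21 (0.985). Over the 3 stages Pkhd1l1 measured 36.3, 82.4 and 37.3 CPM in distraction and 39.7, 28.0 and 37.6 CPM in sham. In sham it was thus lowest at the middle stage, where Tal1 was highest, so a high r need not mean the same course along the stages. Gata2 ran most like Dcaf12l1 (0.977), Cttn (0.968), the actin-binding cortactin, and Ufsp1 (0.968). Cttn measured 45.0 and 56.8 CPM in early cells and 0 in late cells of both libraries. Among the 4 factors, Klf1, Tal1 and Gfi1b were close to one another (0.983 to 0.990) over these sums, and Gata2 stood apart (0.631 to 0.715 with the other 3). In the granulocyte progenitor, neutrophil, monocyte and B sums no factor exceeded 4.68 CPM, so r mostly sets erythroid against other sums. The megakaryocyte gate, left out here, parted the 3, with Tal1 at 428 and 452 CPM, Gfi1b at 25.4 and 104 CPM and Klf1 at 0.

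The protein partners of the factors were followed along the stages from a list of 12 genes, 11 of them in the tables. From the early to the late stage 6 of 8 tested partners were called lower in distraction and 5 of 7 in sham, and 1 was called higher in each, beside 80.9% and 77.2% of all genes lower and 7.29% and 7.62% higher. Without haemoglobin 3 were lower and 2 higher in each, beside 56.9% and 52.1% of all genes lower and 12.6% and 13.7% higher. The median log2 ratios of -2.17 and -2.07 lay near the -2.48 and -2.08 of all genes tested. Lmo2, which joins TAL1 to GATA factors, went from 92.2 CPM to 0 molecules in 148 late cells in distraction and from 80.4 to 4.71 CPM in sham. Ldb1, its binding partner, went from 293 to 21.3 CPM and from 319 to 18.8 CPM, and Tcf3, the E protein that pairs with TAL1, from 236 to 47.9 CPM and from 245 to 84.7 CPM, the last not called without haemoglobin. Lyl1, the close relative of Tal1, was the gene called higher, from 28.7 to 112 CPM and from 34.1 to 141 CPM. Tal1 itself was at 185 and 249 CPM in the same late cells. All 4 tested co-repressor genes of Gfi1b, Kdm1a, Rcor1, Hdac1 and Hdac2, were called lower in late cells in both libraries, also with haemoglobin left out, a direction that the same large shares of all genes had. Kdm1a fell from 122 to 8.87 CPM and from 134 to 11.8 CPM. The median log2 ratios over the 4 tested co-repressors were -3.52 and -3.28, against -2.48 and -2.08 over all genes. In early cells 0 of 10 tested partners and 1 of 4 co-repressors, Hdac1 at 0.659, were called between distraction and sham. Of all 6695 genes tested there, 1.9% were called higher and 4.42% lower, so so few calls were the common case. In middle cells 1 of 6 tested partners, Tcf3 at 0.343, and 2 of 4 co-repressors, among them Kdm1a at 0.424, were called lower in distraction, beside the 21.3% of all genes given above.

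Red cell genes known as targets of these factors were mostly higher in the middle than in the early stage, where Klf1 and Tal1 were highest. Of the 9 listed, 8 were called higher and 1 lower in the middle stage of each library, with median log2 ratios of 1.44 and 1.44 against -1.29 and -0.86 over all genes. Of all genes 10.0% and 9.95% were higher and 64.9% and 55.7% lower. The lists were made with earlier results of these data known, so their direction is no independent evidence. The gene called lower was Nfe2l2, a stress response factor, and that call was lost without haemoglobin. Bcl2l1, the survival gene of late red cell precursors, was at 15.2, 296 and 713 CPM over the 3 stages in distraction and 20.8, 317 and 725 CPM in sham. E2f2, a cell cycle factor of terminal red cell divisions, was at 393, 1516 and 1242 CPM and at 358, 1529 and 1315 CPM, and Dmtn, which codes for the membrane skeleton protein dematin, at 170, 805 and 463 CPM and at 158, 789 and 591 CPM. In late against early cells 7 and 5 of the 9 were called higher and 1 lower, Nfe2l2, beside 7.29% and 7.62% of all genes higher, with medians of 1.05 and 0.74 against -2.48 and -2.08 over all genes. Without haemoglobin 8 were higher and 0 lower in each library. Of the 8 proliferation genes, 7 were called lower in late cells in each library, near the 80.9% and 77.2% of all genes, and Mki67 was not called. Without haemoglobin 6 and 5 were lower and 1 higher in each. In early cells 8 of 9 targets and 8 of 8 proliferation genes were not called between distraction and sham, with Klf3, a repressor that Klf1 is known to switch on, the exception at 0.652. Most genes were not called there either, with 1.9% of 6695 higher and 4.42% lower.

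Of 19 other blood factors, 5 of 8 tested were called lower and 2 higher from the early to the late stage in distraction, and 3 of 7 lower and 3 higher in sham, beside 80.9% and 77.2% of all genes lower and 7.29% and 7.62% higher. Without haemoglobin 3 and 2 were lower and 3 higher in each. Myb, needed for progenitor growth, was at 89.0 CPM in early and 1.77 CPM in late distraction cells and at 60.5 and 14.1 CPM in sham, the latter not called without haemoglobin. Bcl11a, the repressor of fetal globin genes, went from 126 to 3.55 CPM in distraction and from 157 CPM to 0 in sham. Nfe2, a leucine zipper factor of globin and platelet genes, went the other way, from 45.6 to 326 and 295 CPM over the stages in distraction and from 26.5 to 310 and 332 CPM in sham. Of the 9 of these factors tested between distraction and sham in early cells, 1 was called higher, Nfe2 at 1.72, and 1 lower, Klf3 at 0.652. Beside them stand 1.9% of 6695 genes called higher and 4.42% lower. Nfe2 is named there after its value was seen.

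A set of 16 cells, 9 in distraction and 7 in sham, passed both the erythroid and the macrophage gate and was left out of all sums above. They held 58 and 42 Klf1 molecules, 28 and 16 Tal1, 25 and 14 Gfi1b, and 0 and 1 Gata2, at median depths of 19510 and 6801 molecules. Whether these are 2 cells read as 1 was not tested, since no doublet caller was run.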

How the data were processed

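Single cells of 2 suture libraries were counted on the BD Rhapsody system. Per the file headers, the deposited values are molecule counts per gene and cell, unscaled, which the authors made using BD WTA Rhapsody Analysis Pipeline 1.5.1. The submitters' processing notes name build Rnor_6.0 and Seurat 3.6 without a role. The cell index (another unit, per the file headers) only names cells.

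The 4 genes, marker and gene lists were chosen with earlier results of these data known. The gate scoring rule was set after the data had been seen. A marker counted in a cell when above its mean level per 10000 molecules over kept cells. Erythroid gates needed 8 markers, other gates 4, or 3 where a list had 6 or fewer. The 129 cells that passed 2 gates were left out, except that any gate overrode the Cd34 and Kit gate, and 3496 cells were in no gate. No doublet caller was run.

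Counts were summed per gate and library and scaled to CPM. Exact Poisson, Clopper-Pearson and conditional binomial intervals (scipy 1.17.1) cover counting error only. A share or level of 0 is limited by a floor of 3 counts. Ratio intervals were tested on simulated counts. From each list at most 4 genes that reached 50 CPM were named, by size of ratio, and for each factor its 3 most alike genes. Leiden clustering used scanpy 1.11.5. Alternatives were the cell filter, gate strictness, mixed cells, scaling, depth, single cells and clustering. Promoters came from RefSeq by gene symbol, and all 4 matched.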

Additional observations from a re-analysis of the deposited data

How the results depend on the processing

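Of 120 recomputed values of the early distraction to sham and the late to early ratios, 92 were rated the same, 28 moved and 0 reversed a call. The same means inside the counting interval, or a limit set by 0 molecules in both settings. Late to early Gata2 was such a limit, and some of its values rated the same lay outside the interval. On the log2 scale it ran from -6.44 to -3.11 in distraction and from -4.58 to -1.69 in sham. As log2 ratios of distraction to sham in early cells, Gata2 (1.07) was 0.59 with 1 more gate marker, 0.64 with the mean of per-cell CPM and 0.38 with Leiden clusters. Klf1 (0.08) was 0.34 thinned and -0.24 with Leiden clusters. Tal1 (0.26) was 0.052 with the per-cell mean, -0.038 thinned and 0.057 with Leiden clusters. Gfi1b (-0.19) was 0.13 with the per-cell mean, 0.18 thinned and -0.36 with Leiden clusters.

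As log2 ratios of late to early cells, leaving haemoglobin out gave 1.11 and 1.25 for Klf1 (distraction and sham), -0.23 and 0.40 for Tal1 and -0.28 and -0.77 for Gfi1b, by construction of the smaller total. The mean of per-cell CPM gave -0.51 and -0.13 for Klf1, -1.16 for Tal1 in sham and -1.62 for Gfi1b in distraction. Thinning gave -0.49 for Klf1 and -1.75 for Gfi1b in distraction. Leiden clusters gave 0.87 for Klf1 in distraction, -1.23 for Tal1 in sham, and -1.86 and -3.38 for Gfi1b. With cells near a stage border left out, an alternative chosen after seeing the data, Klf1 in sham was -0.13. Apart from haemoglobin, the cause was not tested.

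With no minimum count, 1379 in place of 877 genes were called between libraries in middle cells and 593 in place of 298 in late cells.

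No paired analysis was possible because each group has 1 library and the labels carry no replicate numbers. Depth leaves late Gata2 with the upper limits given, and gates of 10 to 22 cells rest on few cells.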
